A study of Homo sapiens with 12 samples.

Results

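The NF-kB pathway and inflammatory genes described here are 39 named genes, taken from a table of 58233 genes by matching the gene symbol: the NF-kB subunits, their inhibitors and regulators, adaptors and kinases, receptors, cytokines and chemokines, and inflammasome components. Every gene of the list was found in the table, and 25 of the 39 were expressed highly enough to be tested together with all other genes of that kind, which were 7820 in number. RNA was sequenced from HL-60 cells, an established acute myeloid leukaemia line labelled wild type and myeloid, after poly(A) selection. Cells received 100 nM ATRA (all-trans retinoic acid, a ligand of the retinoic acid receptors), 500 nM palbociclib (an inhibitor of the cell cycle kinases CDK4 and CDK6), both agents together (the combination), or no treatment, with 3 libraries per group and 3 h of treatment. The labels name no vehicle for the untreated cells, all groups are the same cell line, and nothing in the labels says that the 3 replicates came from separate experiments, so a p-value measures the spread between these libraries, which may be technical.

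NF-kB is a family of dimeric transcription factors that IkB proteins hold inactive in the cytoplasm until receptors such as the TNF and Toll-like receptors, acting through adaptors and the IKK kinases, cause the IkB protein to be destroyed. The freed dimers switch on cytokines, chemokines and survival factors, and they also switch on several of their own inhibitors, so that the response limits itself. In myeloid cells the same genes serve the defence functions that granulocytes and monocytes acquire as they mature.

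All levels below are RPKM values, that is reads scaled to the length of the gene and to the size of the library, which the authors rounded to whole numbers. A value of 0 may therefore still stand for weak expression. Log2 fold changes are differences between group means of log2(RPKM + 0.1) from limma, given with their standard error (SE). The added 0.1 makes the change of low genes smaller, and the rounding can make it smaller or larger. A gene was called when its p-value, adjusted over all 7820 genes tested by the Benjamini-Hochberg method, was under 0.05. The labelled identity was checked first: 7 myeloid progenitor markers summed to between 1459 and 1961 RPKM in every library, while 5 of 6 monocyte and macrophage markers (CD14 among them), 4 of 5 lymphoid, 4 of 5 mature neutrophil and 2 of 2 erythroid markers were listed at 0 throughout. Most of the myeloid sum came from MPO, at 1077 to 1579. Of the same markers, CD33 was listed at 6 to 8 and ELANE at only 0 or 1. The lymphoid sum was 0 without ATRA and 1 with it, all from CD79A, and of 4 epithelial and stromal markers only PECAM1 was above 0, at 2 to 3 without ATRA and 4 to 6 with it. The part of these shifts in the results was not tested. The treatments were visible in some other genes. DHRS3, a retinoid-responsive reductase, was listed at 0, 1 and 0 in untreated cells and at 40, 48 and 47 with ATRA. HIC1, a further retinoid target, went from 0 to 8, 11 and 10. The retinoid targets CYP26A1, RARB and TGM2 had the value 0 in all 12 libraries and so showed no response on this scale. E2F1, a cell cycle transcription factor, stood at 14, 12 and 12 in untreated cells against 5, 5 and 4 with palbociclib. ATRA alone also lowered E2F1, to 9, 8 and 8, so its fall was not specific to palbociclib.

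The promoters of the genes were searched for the NF-kB consensus sequence on both strands, in the RefSeq promoter windows of GRCh38.p14, which run from 250 bases before to 50 bases after an annotated start. Of the 39 genes, 32 had at least 1 window and 16 of these held a match, and the genes with no entry were NFKBIE, RELB, CD40, CCL2, CCL4, RIPK2 and CASP1. Among all 35116 windows in RefSeq, 2075 held one, which is 5.91%, and 19 of the 51 windows of these genes did. The genes with a match were BCL3, BIRC3, CD83, CXCL2, CXCL3, LTA, LTB, NFKB1, NFKB2, NFKBIA, NFKBIB, NFKBIZ, REL, TNFAIP3, TNIP1 and TRAF3. Shown here are matches from genes that later prove to be higher (LTB, NFKB2, NFKBIA) and lower (NFKB1, TNFAIP3, TRAF3) after treatment, so that the sites can be compared, each read in the direction of the gene with the bases of 1 match in capitals and 15 bases on either side. The TNFAIP3 stretch holds a further match among its lower-case bases, and NFKB2 held further matches that are not shown.
LTB: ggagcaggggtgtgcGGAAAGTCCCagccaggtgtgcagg
NFKB2: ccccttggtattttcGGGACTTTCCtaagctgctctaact
NFKBIA: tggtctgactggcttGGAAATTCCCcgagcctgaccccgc
NFKB1: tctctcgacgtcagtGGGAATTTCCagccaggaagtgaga
TNFAIP3: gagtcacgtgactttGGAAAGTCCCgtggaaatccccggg
TRAF3: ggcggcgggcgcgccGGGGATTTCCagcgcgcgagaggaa
The LTB stretch lies on the minus strand at chr6:31582487-31582526, and the NFKBIA stretch on the minus strand at chr14:35404806-35404845. On the plus strand are NFKB2 at chr10:102395669-102395708, which is inside the gene because other transcripts start further upstream, NFKB1 at chr4:102501295-102501334, TNFAIP3 at chr6:137867177-137867216 and TRAF3 at chr14:102777401-102777440. The 10 bases in capitals in LTB and in TNFAIP3 were the same. LTB was higher and TNFAIP3 lower after ATRA, and whether these bases bear on either gene was not tested.

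The CXCL8 window held no match to the consensus. After the values had been seen, it was searched for GGAATTTCC and TGACTCA, letters typical of an NF-kB and an AP-1 site, on both strands. It held each once, as did 0.461% and 4.95% of all windows respectively, and GGAATTTCC overlaps the consensus in the other genes that carry it. The stretch from 150 to 51 bases before the start of CXCL8, on the plus strand at chr4:73740419-73740518, is shown because CXCL8 was among the genes that moved most, with both matches in capitals.
CXCL8: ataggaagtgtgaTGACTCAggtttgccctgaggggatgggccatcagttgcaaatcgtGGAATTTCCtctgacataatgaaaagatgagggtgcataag
The direct repeat with a spacing of 5 bases to which retinoic acid receptors bind (DR5 retinoic acid response element, both strands) was in 0.0883% of all windows and in none of these genes' windows. A match describes the letters of a window and does not show that a factor binds there.

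In untreated cells the list was carried by few genes. TNF, the founding cytokine of the pathway, had the highest mean at 55.7 ± 5.51 RPKM (SD, n = 3), followed by IRAK1, a kinase below the Toll-like and interleukin-1 receptors, at 53.3 ± 4.04, and these neighbours in the order overlapped. Next came TNFAIP3, the enzyme A20 that edits ubiquitin chains to shut the pathway off, the adaptor MYD88 and the inflammatory protease CASP1, at means of 25.3, 24.3 and 21.7. In all, 5 genes had a mean of at least 20 and 17 a mean of at least 10. TRAF1, CD40 and CXCL3 were listed at 0 in all 12 libraries. CXCL3 and CXCL2, like CCL3 and CCL4, have close paralogs with which reads could have been shared or lost, so their low values are uncertain.

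**Figure D1:**
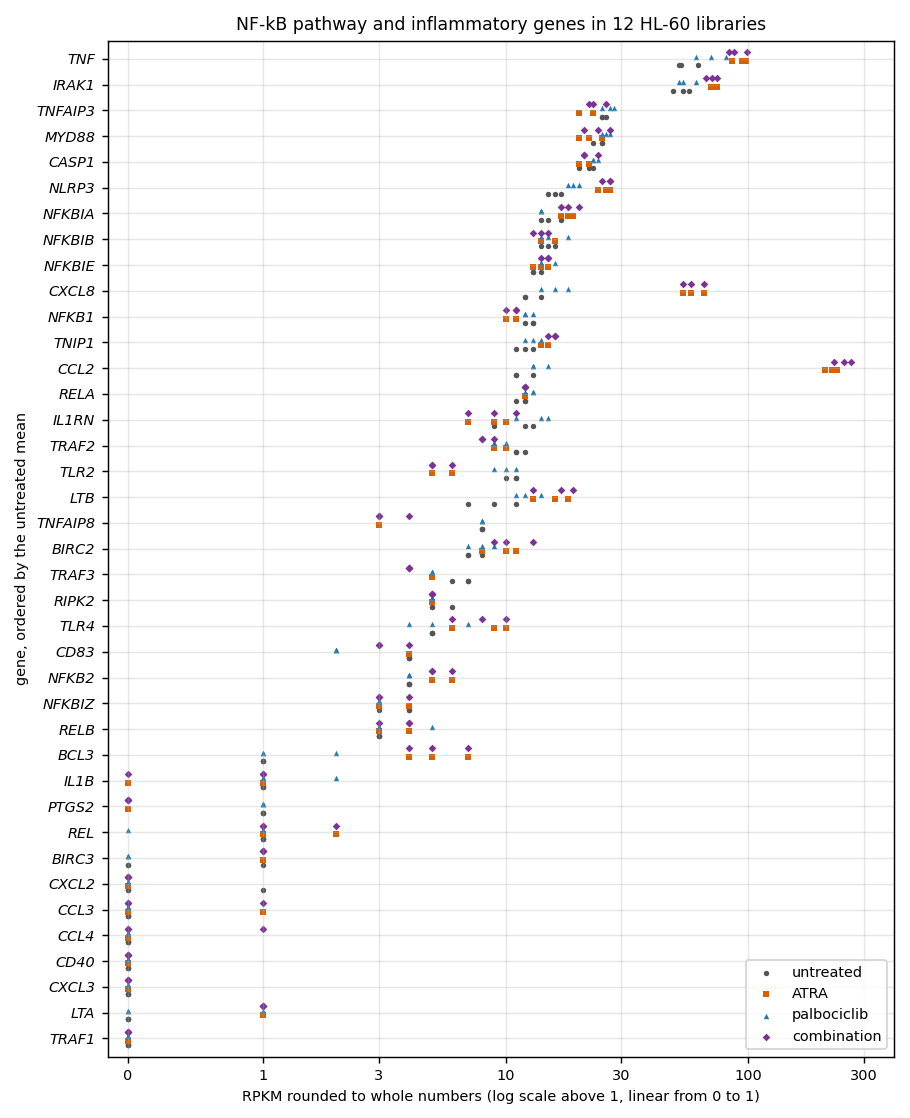
RPKM (rounded to whole numbers, log scale above 1) of each of the 39 genes in the 12 libraries, with genes ordered by their untreated mean and symbols for the 4 groups. CCL2 and CXCL8 lie far to the right with ATRA and with the combination, at 207 to 265 and 54 to 66, while the genes at the bottom stay at 0 or 1.

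ATRA alone against untreated cells asks how the pathway responded to the retinoid. The chemokines CCL2, which attracts monocytes, and CXCL8, which attracts neutrophils, rose about 18.9-fold and 4.68-fold on mean RPKM, while the receptor TLR2 and the apoptosis regulator TNFAIP8 fell. Of the 25 genes tested, 14 were called, 9 higher and 5 lower, where 20.3% of all 7820 genes were called (8.71% higher and 11.6% lower). At a stricter threshold of 0.001, 7 of the 25 were called, against 4.72% of all genes. Their median log2 fold change was 0.07, against -0.01 over all genes, and the median absolute change 0.38 against 0.16. The split of 9 higher and 5 lower became 7 and 6 with libraries scaled to their sum, and 9 and 3 with libraries centred on the median, and no called gene changed direction. Without ATRA replicate 2 the number called was 9. All ATRA libraries lay above all untreated ones in 10 of the 25 genes, beside 12.4% of all genes. They lay below them in 6, beside 17.3%. BCL3, NFKB2 and TNFAIP8 passed the filter on low values only in the groups where they were high. They thus entered the test already selected for a difference, and of the other 22 genes 11 were called. The counts without overlap include BCL3, NFKB2 and TNFAIP8, and the count at 0.001 includes BCL3 and TNFAIP8.

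Among the cytokines and chemokines, 4 of the 5 tested rose and none fell. CCL2 (chr17:34255274-34257208) stood at 11, 11 and 13 RPKM in untreated cells and at 207, 232 and 221 with ATRA. CXCL8 (chr4:73740519-73743716) stood at 12, 12 and 14 against 54, 66 and 58. For both genes every ATRA library lay several times above every untreated one, and the log2 fold changes were 4.23 (SE 0.09, adjusted p = 8.11e-10) for CCL2 and 2.22 (SE 0.11, adjusted p = 4.7e-07) for CXCL8.

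TNF (chr6:31575565-31578336) was listed at 52, 53 and 62 RPKM in untreated cells and at 94, 86 and 98 with ATRA. LTB (chr6:31580525-31582522), which encodes the membrane anchor of the lymphotoxin complex and lies close to TNF, was listed at 7, 11 and 9 against 13, 18 and 16. The groups did not overlap for either gene. TNF was higher by 0.74 on the log2 scale (SE 0.11, adjusted p = 0.000936) and LTB by 0.80 (SE 0.19, adjusted p = 0.012), and the LTB call was lost without untreated replicate 1 (adjusted p = 0.0542) or ATRA replicate 2 (adjusted p = 0.0539). IL1RN, the interleukin-1 receptor antagonist, was listed at 9, 13 and 12 against 7, 10 and 9, and the overlapping groups gave -0.38 (SE 0.20, adjusted p = 0.216).

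The NF-kB subunits changed little. NFKB1 (chr4:102501330-102617302), the precursor of p50, fell by 0.25 on the log2 scale (SE 0.07, adjusted p = 0.026), from 12, 13 and 13 RPKM to 10, 11 and 11. NFKB2 (chr10:102394110-102402524), the precursor of p52, rose by 0.40 (SE 0.10, adjusted p = 0.0153), from 4 in each library to 5, 6 and 5. Both differences amount to 1 to 3 rounding steps, so the whole-number scale bears on them. The NFKB1 call was lost without untreated replicate 2 or 3 or ATRA replicate 1 or 2 (adjusted p of 0.0502 to 0.0770), and the NFKB2 call without ATRA replicate 2 (adjusted p = 0.0677). RELA, the main activating subunit, was listed at 12, 12 and 11 in untreated cells, 12 in each library with ATRA or the combination and 13, 12 and 13 with palbociclib, with a log2 fold change under ATRA of 0.04 (95% confidence interval -0.08 to 0.16). RELB was listed at 3 to 5 and REL at 0 to 2, both below the filter.

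IkB proteins and their relatives differed among themselves. BCL3 (chr19:44747705-44760044), an IkB family member that works in the nucleus with p50 and p52, went from 1 in all 3 untreated libraries to 5, 7 and 4 with ATRA, a log2 fold change of 2.27 (SE 0.29, adjusted p = 0.000357). The classical inhibitor NFKBIA (chr14:35401079-35404749) was listed at 14, 15 and 17 against 18, 19 and 17, touching at 17, and was not called (0.23, SE 0.08, adjusted p = 0.0695). Without untreated replicate 3 it was called (adjusted p = 0.0264). NFKBIB was listed at 14, 15 and 16 against 16, 14 and 14 (18, 14 and 15 with palbociclib and 15, 14 and 13 with the combination). NFKBIE was listed at 13, 13 and 14 against 15, 14 and 13 (16, 14 and 14 with palbociclib and 15, 15 and 14 with the combination). The groups of both genes overlapped, and their log2 fold changes under ATRA were -0.03 (95% confidence interval -0.26 to 0.19) and 0.07 (-0.10 to 0.23).

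The A20 machinery moved in both directions. TNFAIP3 (chr6:137867214-137883314) fell by 0.27 on the log2 scale (SE 0.08, adjusted p = 0.0324), from 25, 26 and 25 RPKM to 20, 20 and 23. TNIP1 (chr5:151029945-151093577), which binds A20, rose by 0.29 (SE 0.08, adjusted p = 0.022), from 11, 13 and 12 to 14, 15 and 15. Neither pair of groups overlapped, but the TNFAIP3 call was lost without any 1 of the untreated replicates or without ATRA replicate 1 or 2 (adjusted p of 0.0675 to 0.115), and the TNIP1 call without untreated replicate 1 or 3 or ATRA replicate 2 or 3 (adjusted p of 0.0542 to 0.0808).

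Of the adaptors, inhibitors of apoptosis and kinases, 1 rose and 2 fell. TNFAIP8 (chr5:119268692-119399688), a TNF-inducible regulator of cell death, went from 8 in all 3 untreated libraries to 3 in all 3 with ATRA, and fell by 1.39 on the log2 scale (SE 0.10, adjusted p = 7.78e-06). TRAF3 (chr14:102777449-102911500), an adaptor that restrains the non-canonical pathway, went from 7, 6 and 7 to 5 in each library (-0.40, SE 0.08, adjusted p = 0.00363). IRAK1 (chrX:154010506-154019902) rose from 57, 54 and 49 to 74, 71 and 70 (0.43, SE 0.07, adjusted p = 0.00238). The groups did not overlap for any of the 3 genes. TRAF2, an adaptor of the TNF receptors, was listed at 11, 12 and 11 against 10, 9 and 10 and was not called (adjusted p = 0.0587), nor was BIRC2, the ubiquitin ligase cIAP1, at 7, 7 and 8 against 8, 10 and 11 (adjusted p = 0.107). TRAF2 was called with libraries scaled to their sum (adjusted p = 0.0360) or without combination replicate 1 (0.0440). BIRC2 was called without ATRA replicate 1 (adjusted p = 0.0455). Over all 12 libraries MYD88 ranged from 20 to 27 and RIPK2, the kinase that relays signals from the NOD receptors, from 5 to 6, and neither was called in any comparison.

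Receptors and the inflammasome followed. TLR2 (chr4:153684070-153706260), which recognises bacterial lipoproteins, was listed at 10, 11 and 11 in untreated cells and at 5, 5 and 6 with ATRA, so that no library overlapped and the fall was 0.99 on the log2 scale (SE 0.11, adjusted p = 0.000102). TLR4 (chr9:117704175-117724735), the endotoxin receptor, stood at 5 in all 3 untreated libraries and at 6, 10 and 9 with ATRA, but its spread left it short of the threshold (0.69, SE 0.24, adjusted p = 0.066). Without ATRA replicate 1 it was called (adjusted p = 0.0239). NLRP3 (chr1:247416156-247449108), the inflammasome sensor, rose from 16, 17 and 15 to 24, 26 and 27 (0.68, SE 0.07, adjusted p = 6.57e-05), whereas its effector CASP1 gave -0.07 (95% confidence interval -0.23 to 0.10). In bulk RNA a lower value cannot be told apart as fewer cells expressing a gene or as less RNA per cell.

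**Figure D2:**
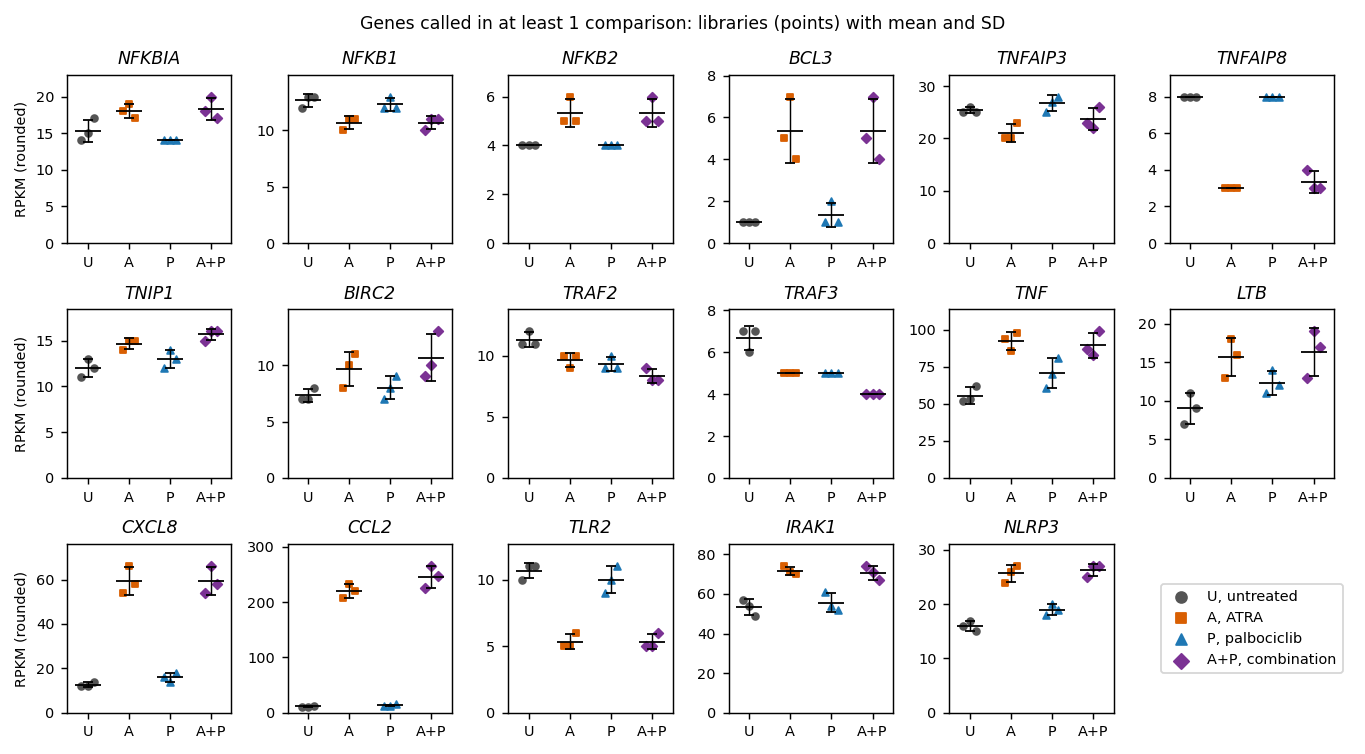
RPKM of the 17 genes called in at least 1 comparison, with 1 point per library, the mean as a horizontal line and the SD (n = 3) as a bar, on a linear axis from 0. CCL2, CXCL8, TLR2 and NLRP3 are among the genes that separate the libraries with ATRA from those without it. BCL3 and TNFAIP8 do so too, but they passed the filter on low values only through the groups where they were high. TRAF3 is lowest in the combination, at 4 in each library.

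Palbociclib alone lowered TRAF3, the only gene of the 25 called, a share close to the 4.07% of all 7820 genes, and at the threshold of 0.001 there was none, against 0.499%. It was listed at 7, 6 and 7 RPKM in untreated cells and at 5 in each palbociclib library (-0.40 on the log2 scale, SE 0.08, adjusted p = 0.014), the same values as with ATRA. The call was lost without untreated replicate 3 (adjusted p = 0.0525) and with the compared groups alone (adjusted p = 0.0670), when the count became 0. The median log2 fold change was 0.10, against 0.00 over all genes, and the median absolute change 0.12 against 0.11.

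Several inflammatory genes lay somewhat higher with palbociclib without passing the threshold. Of the 25 genes, 7 had an unadjusted limma p-value under 0.05, 5 higher and 2 lower, where 17.4% of all genes did. All palbociclib libraries lay above all untreated ones in 1 of the 25, beside 5.74% of all genes. They lay below them in 2, beside 9.48%. TNF was listed at 61, 70 and 81 against 52, 53 and 62 (0.34, SE 0.11, adjusted p = 0.128), with 1 palbociclib library below the highest untreated one. NLRP3 was listed at 18, 20 and 19 against 16, 17 and 15, without overlap (0.25, SE 0.07, adjusted p = 0.0767). CXCL8 at 16, 14 and 18 touched the untreated libraries at 14 (0.33, SE 0.11, adjusted p = 0.146), as LTB at 11, 14 and 12 did at 11 (0.47, SE 0.19, adjusted p = 0.226). CCL2 at 13, 13 and 15 gave 0.23 (SE 0.09, adjusted p = 0.212). TLR4 at 4, 7 and 5 and IL1RN at 11, 15 and 14 overlapped their untreated libraries. In the other direction, TRAF2 at 9, 10 and 9 lay below its untreated 11, 12 and 11 (-0.28, SE 0.08, adjusted p = 0.0738). CD83, a surface marker of activated antigen-presenting cells that lay below the filter, had the value 4 in the untreated libraries and 2 in those with palbociclib, 3 libraries each. With the looser filter of 1 RPKM in 3 libraries it was called lower (adjusted p = 0.000447, where 2.78% of 14003 genes were called), from values that were identical within each group.

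**Figure D3:**
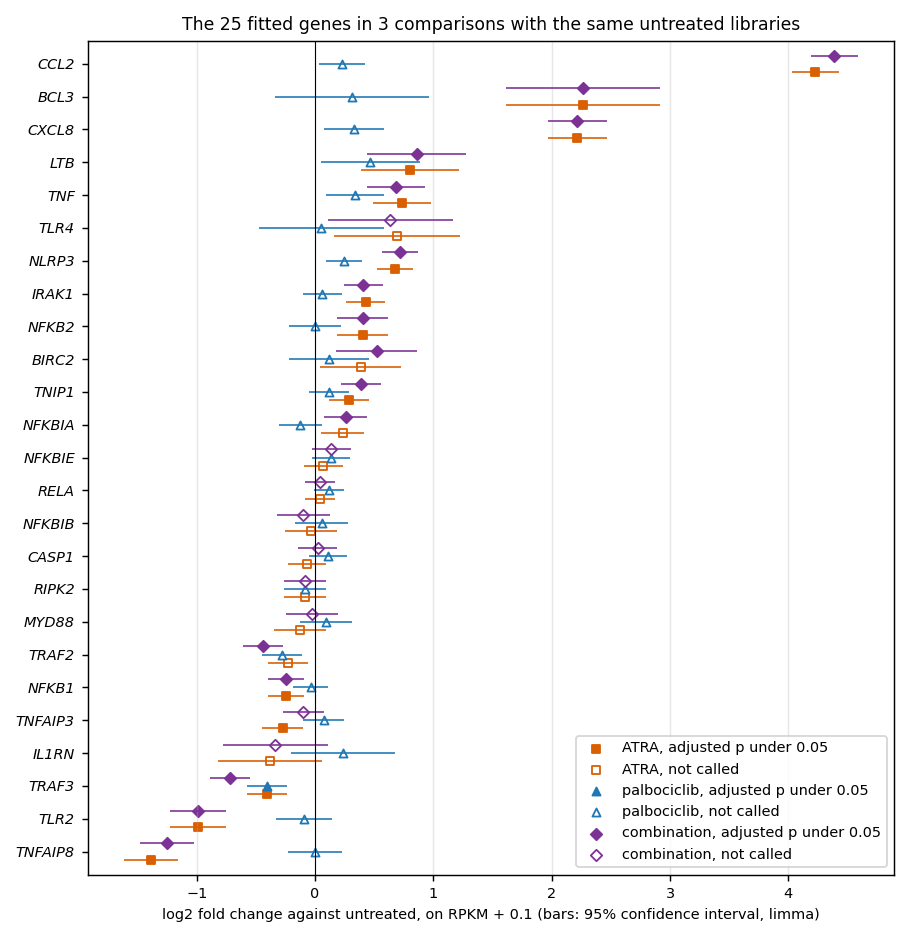
Log2 fold changes against untreated cells of the 25 genes tested, on the scale of log2(RPKM + 0.1), for ATRA (squares), palbociclib (triangles) and the combination (diamonds), with 95% confidence intervals from limma. Filled symbols have an adjusted p under 0.05: 14 genes for ATRA, 1 for palbociclib and 16 for the combination, and the 3 comparisons share the untreated libraries.

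With the combination, 16 of the 25 genes were called against untreated cells, 11 higher and 5 lower, where 30.4% of all genes were called (12.7% higher and 17.7% lower). At the threshold of 0.001 there were 8, against 8.04% of all genes. The same untreated libraries served both this comparison and that with ATRA alone, so the values are given side by side. The median log2 fold change was 0.14, against -0.01 over all genes, and the median absolute change 0.41 against 0.19. Of the 22 genes without BCL3, NFKB2 and TNFAIP8, 13 were called. TRAF3 is among these 13, although it was under 5 RPKM in every combination library and passed the filter through the other groups. All combination libraries lay above all untreated ones in 11 of the 25 genes, beside 15.3% of all genes. They lay below them in 5, beside 20.6%. The counts without overlap include BCL3, NFKB2 and TNFAIP8, and the count at 0.001 includes BCL3, TNFAIP8 and TRAF3.

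CCL2 reached 226, 265 and 247 RPKM with the combination, a log2 fold change of 4.39 (SE 0.09, adjusted p = 5.47e-10) and a mean 21.1-fold above untreated cells. CXCL8 was listed at 54, 66 and 58, the very values of ATRA alone by replicate number, and its log2 fold change was likewise 2.22 (adjusted p = 4.41e-07). BCL3 at 5, 7 and 4 also repeated the ATRA values (2.27, SE 0.29, adjusted p = 0.000228). TNF at 87, 83 and 99 gave 0.69 (SE 0.11, adjusted p = 0.000989), LTB at 13, 19 and 17 gave 0.86 (SE 0.19, adjusted p = 0.00594), and NLRP3 at 25, 27 and 27 gave 0.72 (SE 0.07, adjusted p = 3.15e-05). All these genes lay above their untreated libraries without overlap.

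Of the genes that fell, TNFAIP8 was listed at 4, 3 and 3 (-1.25 on the log2 scale, SE 0.10, adjusted p = 1.11e-05) and TLR2 at 5, 5 and 6 (-0.99, SE 0.11, adjusted p = 7.01e-05). TRAF3 at 4 in each library (-0.72, SE 0.08, adjusted p = 5.89e-05) and TRAF2 at 9, 8 and 8 (-0.44, SE 0.08, adjusted p = 0.00151) were the adaptors that fell, and no library of either overlapped the untreated ones. NFKB1, at 10, 11 and 11, gave -0.25 (SE 0.07, adjusted p = 0.0186), a call lost without untreated replicate 2 or 3 or combination replicate 1 (adjusted p of 0.0566 to 0.0570).

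Smaller increases were those of IRAK1, at 74, 71 and 67 (0.41, SE 0.07, adjusted p = 0.00212), NFKB2, at 5, 6 and 5 (0.40, adjusted p = 0.0111), and TNIP1, at 15, 16 and 16 (0.38, SE 0.08, adjusted p = 0.00343). NFKBIA, at 18, 20 and 17, gave 0.26 (SE 0.08, adjusted p = 0.0361), with 1 library equal to the highest untreated one, and the call was lost in 6 of the 12 fits that each left out 1 library, those without untreated replicate 1 or 2, palbociclib replicate 2 or 3, or combination replicate 1 or 2 (adjusted p of 0.0502 to 0.132). BIRC2, at 9, 10 and 13, gave 0.52 (SE 0.15, adjusted p = 0.0265), a call lost without untreated replicate 1 or 2 or combination replicate 2 or 3 (adjusted p of at most 0.0977), with both looser filters, with libraries scaled to their sum and with the compared groups alone (0.0564 to 0.0615). TNFAIP3, at 23, 22 and 26, was not called (-0.10, SE 0.08, adjusted p = 0.369), nor was TLR4, at 6, 10 and 8 (0.64, SE 0.24, adjusted p = 0.0691), or IL1RN, at 7, 11 and 9 (-0.34, SE 0.20, adjusted p = 0.237). TLR4 was called without ATRA replicate 1 (adjusted p = 0.0441) or combination replicate 1 (0.0330).

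The combination against ATRA asks what palbociclib added to the retinoid. None of the 25 genes was called by limma, where 0.115% of all genes were, and none was called with the replicate number as a block, where 0.652% of all genes were. The block belongs to this comparison because same-numbered libraries of the treated groups deviated together. TRAF2 and TRAF3 were the 2 genes with an unadjusted p-value under 0.05, where 3.67% of all genes were, and the block gave 4, where 8.22% were. TRAF3 went from 5 in each ATRA library to 4 in each combination library, a single rounding step without overlap (-0.31 on the log2 scale, SE 0.08, adjusted p = 0.281, and 0.0968 with the block over all 12 libraries). Of the 25 genes it alone lay lower without overlap, where 2.52% of all genes did. TRAF3 was called in the fit of the 9 treated libraries alone with the block (adjusted p = 0.00658), a setting added after seeing the data, and in the fit of the compared groups alone (adjusted p = 0.0187), and its values were identical within each group. TRAF2, at 10, 9 and 10 against 9, 8 and 8, gave -0.21 (SE 0.08, adjusted p = 0.946). Compared by replicate number, every combination library was higher than its ATRA counterpart for CCL2, TNFAIP3, TNIP1, MYD88 and CASP1. It was lower for TRAF2 and TRAF3. TNFAIP3, for example, went from 20, 20 and 23 to 23, 22 and 26.

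The intervals given here come from the fit without the replicate block, so they leave the pairing of the numbers aside. For CCL2 the difference was 0.16 on the log2 scale with a 95% confidence interval of -0.04 to 0.36, for CXCL8 0.00 (-0.25 to 0.25), and for TNF -0.05 (-0.29 to 0.20). By replicate number CCL2 went from 207, 232 and 221 with ATRA to 226, 265 and 247 with the combination, higher each time. It was not called with the block either. TNF went from 94, 86 and 98 to 87, 83 and 99, in both directions. Same-numbered libraries of ATRA and the combination held identical whole numbers in 11 to 13 of the 25 genes and in 39.5% to 45.1% of all genes tested, against 4 to 6 genes and 17.2% to 31.3% between different numbers. The identical CXCL8 and BCL3 values belong to this pattern, whose origin was not tested.

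The combination against palbociclib shows the retinoid effect in the presence of the kinase inhibitor. It called 11 of the 25 genes, 8 higher and 3 lower, where 12.5% of all genes were called (5.86% higher and 6.64% lower), 4 of the 25 at the threshold of 0.001, where 3.11% were, and 17 of the 25 with the replicate block, where 23.5% of all genes were called. Without BCL3, NFKB2 and TNFAIP8, 8 of 22 were called. All combination libraries lay above all palbociclib ones in 9 of the 25 genes, beside 8.26% of all genes. They lay below them in 4, beside 9.86%. The counts without overlap include BCL3, NFKB2 and TNFAIP8, and the count at 0.001 includes TNFAIP8. CCL2 was higher by 4.16 on the log2 scale (SE 0.09, adjusted p = 9.63e-10), from 13, 13 and 15 to 226, 265 and 247 RPKM, and CXCL8 by 1.89 (SE 0.11, adjusted p = 2.16e-06). BCL3 rose by 1.96 (SE 0.29, adjusted p = 0.00125), NLRP3 by 0.47 (SE 0.07, adjusted p = 0.0011) and NFKBIA by 0.38 (SE 0.08, adjusted p = 0.0106), the last from 14 in each palbociclib library to 18, 20 and 17.

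TNFAIP8 fell by 1.25 on the log2 scale (SE 0.10, adjusted p = 1.78e-05), from 8 in each palbociclib library to 4, 3 and 3, TLR2 by 0.89 (SE 0.11, adjusted p = 0.000269), from 9, 10 and 11 to 5, 5 and 6, and TRAF3 by 0.31 (SE 0.08, adjusted p = 0.0192), from 5 to 4 in each library. IRAK1 (0.35, adjusted p = 0.0111), NFKB2 (0.40, adjusted p = 0.0215) and TNIP1 (0.27, adjusted p = 0.0432) were the other genes that rose. The IRAK1 call was lost without palbociclib replicate 3 (adjusted p = 0.0529) or with the compared groups alone (0.0612), the TRAF3 call without combination replicate 2 (0.0541) or with libraries scaled to their sum (0.0578), and the NFKB2 call without palbociclib replicate 2 or 3 or combination replicate 2. The TNIP1 call was lost without untreated replicate 3, ATRA replicate 2 or 3, palbociclib replicate 1 or 3, or combination replicate 2 or 3. TNF, at 61, 70 and 81 against 87, 83 and 99, gave 0.35 (SE 0.11, adjusted p = 0.0694) without overlap and was called with the block (adjusted p = 0.00442), as were LTB (adjusted p = 0.00204), NFKB1 (0.00738), BIRC2 (0.00445), TLR4 (0.0192) and IL1RN (8.32e-05). TNF was also called without palbociclib replicate 3 (adjusted p = 0.0321).

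**Figure D4:**
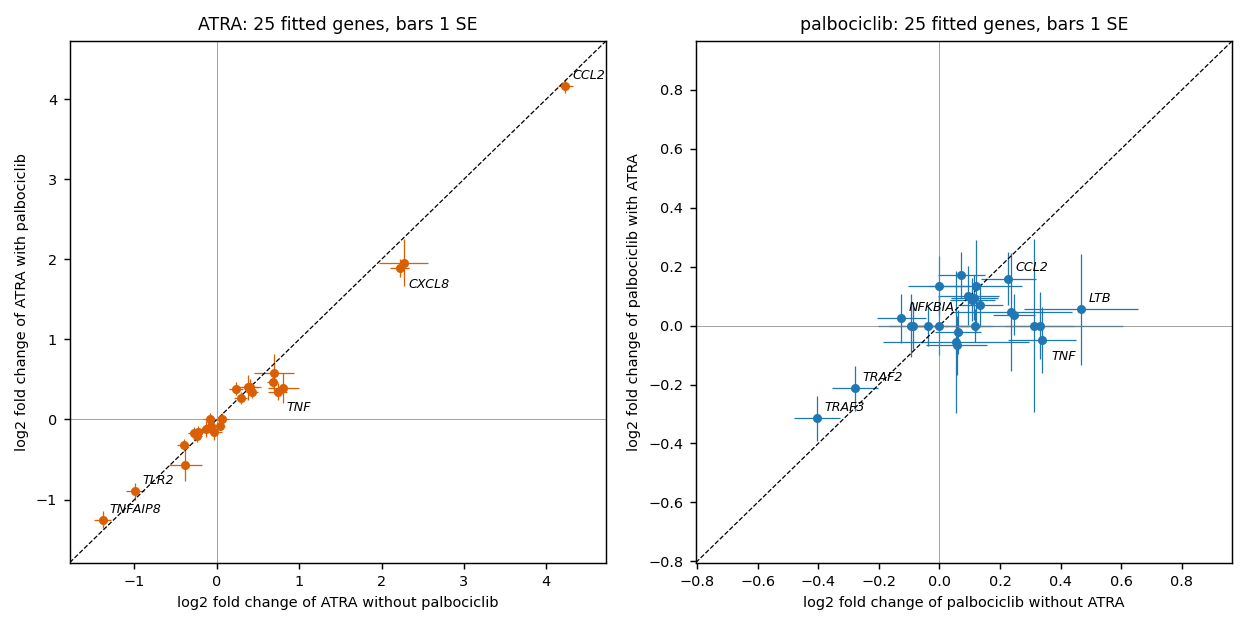
Log2 fold changes of the 25 genes for ATRA (left) and palbociclib (right), without the other agent on the horizontal axis and with it on the vertical axis, with bars of 1 SE and the line of equal values. The axes of a panel rest on different libraries. The distance of a gene from the line is its departure from additivity, which is the same number in both panels. TNF and LTB are among the 15 genes below the line, and no departure was called. Their palbociclib effects were 0.34 and 0.47 alone and -0.05 and 0.05 in the presence of ATRA.

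Whether the agents together did more or less than the sum of their separate effects was tested as the departure from additivity on the log2 scale. None of the 25 genes was called by limma, with or without the replicate block, and none of all 7820 genes (0%). TNF was the 1 gene with an unadjusted p-value under 0.05, where 3.02% of all genes were, and the block gave 4, where 7.98% were. For TNF the combination lay 0.39 below the sum (95% confidence interval -0.73 to -0.04, unadjusted p = 0.0319, adjusted p = 1). CXCL8 gave -0.33 (-0.69 to 0.03), NLRP3 -0.21 (-0.43 to 0.01), CCL2 -0.07 (-0.35 to 0.21) and TRAF3 0.09 (-0.15 to 0.33). The median over the 25 genes was -0.02, against 0.00 over all genes, with 10 positive and 15 negative values.

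The 14 genes outside the 25 were low. The highest value in any library was 1 for 6 of them (BIRC3, PTGS2, CXCL2, LTA, CCL3 and CCL4), 2 to 4 for another 4 (REL, IL1B, NFKBIZ and CD83) and 5 for RELB, beside the 3 at 0 throughout. BIRC3, the ligase cIAP2, was listed at 0, 0 and 1 in untreated cells and at 1 in every library with ATRA or the combination. PTGS2, the inducible cyclooxygenase, was listed at 1 in every untreated and palbociclib library and at 0 in every library with ATRA or the combination. LTA, the lymphotoxin alpha gene, was listed at 0 in every untreated library and at 1 in every library with ATRA or the combination. With the looser filter of 1 RPKM in 3 libraries, used as an alternative on 14003 genes, PTGS2 (lower, adjusted p = 1.27e-11) and LTA (higher, adjusted p = 0.0193) were called for ATRA against untreated cells by limma, where 13.8% of all genes were, and BIRC3 was not (adjusted p = 0.0946). These are differences of 1 rounding step, and the values of PTGS2 were identical within each group, so that its p-value rests on the rounding. NFKBIZ, an inducible nuclear IkB protein, was listed at 3 or 4 in every library, and the interleukin IL1B at 0 to 2.

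Around these genes stand 85 further genes of the pathway, of which 37 were tested. With ATRA, 15 of the 37 rose and 2 fell, beside 8.71% and 11.6% of all genes, and with the combination 17 rose and 4 fell, beside 12.7% and 17.7%. ICAM1, IRF1, CYLD and MAP3K8 passed the filter on low values only with ATRA and SERPINB2 only without it, so that they entered already selected for a difference. Of the other 32 genes, 11 rose and 1 fell with ATRA, 13 rose and 3 fell with the combination, and 8 rose and 1 fell between the combination and palbociclib, where 5.86% and 6.64% of all genes did. BCL2A1 is among the 32 and among those that rose, although it would not have passed the filter without the ATRA libraries. With palbociclib alone none of the 37 was called by limma, where 4.07% of all genes were, 4 had an unadjusted p-value under 0.05, and 3 were called with the replicate block, where 13.6% of all genes were. By function, and without those 5 genes, ATRA raised 3 of 8 IKK components and upstream kinases, 2 of 11 adaptors and ubiquitin enzymes, 1 of 3 receptors, 1 of 2 further inflammasome genes and 4 of 8 other target genes, while 1 receptor fell. Between the combination and ATRA none of the 37 was called by limma, with or without the block, and 0 had an unadjusted p-value under 0.05. The departure from additivity called none either, and 1 had an unadjusted p-value under 0.05.

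The largest of these changes under ATRA were in target genes. ICAM1, an adhesion molecule for leukocytes, went from 1 in all 3 untreated libraries to 8, 19 and 15 with ATRA (3.59 on the log2 scale, SE 0.34, adjusted p = 3.84e-05). IRF1, an interferon-response transcription factor, gave 2.00 (SE 0.21, adjusted p = 9.45e-05), PLEK, a platelet and leukocyte kinase substrate, 1.79 (SE 0.06, adjusted p = 3.49e-08) and BCL2A1, a survival factor, 1.68 (SE 0.08, adjusted p = 4.25e-07). SERPINB2, an inhibitor of plasminogen activators, went the other way, from 8, 9 and 13 to 1 in each library (-3.17, SE 0.24, adjusted p = 9.23e-06). With the combination the same 5 genes gave 3.65, 2.13, 1.83, 1.75 and -3.17, and against palbociclib 3.65, 1.82, 1.71, 1.54 and -3.27. Of the 5, ICAM1 and IRF1 passed the filter on low values only with ATRA and SERPINB2 only without it. BCL2A1, at 4 in each untreated library and 5, 5 and 4 with palbociclib, would not have passed it without the ATRA libraries.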

How the data were processed

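RNA sequencing data of 12 HL-60 libraries, 3 per group, were analysed, with groups and replicate numbers taken from the sample labels. Per the submitters' processing notes the authors used HISAT2, HTSeq and hg38, and the deposited score values are RPKM of 58233 genes in whole numbers, rounded by them and listed for each library singly. The read depth of each library is not given in the sources used here, so no counting error could be stated and errors are the SD over 3 replicates. The values of a library summed to between 358455 and 390247.

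With limma 3.58.1 in R 4.3.3, log2(RPKM + 0.1) of the 12 libraries was modelled by 1 mean per group, using eBayes with a variance trend. The 7820 genes entered had reached 5 RPKM in 3 or more libraries. The design had assumed RPKM with decimals, and the same test was kept for the rounded values. P-values of 6 comparisons were two-sided and adjusted over all 7820 genes within each comparison by the Benjamini-Hochberg method. A 25-gene count is therefore never adjusted over the list alone. The script was tested on simulated data. Tables and plots were made in Python 3.11.15. Gene positions are those of GENCODE v44 on hg38, and promoter windows those of RefSeq on GRCh38.p14.

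The members and lists were chosen with earlier results of these data known, and the list of 85 further pathway genes and the marker lists were written from general knowledge. Every one of the 39 genes was accounted for. Values in every library and statistics were given for genes called in at least 1 comparison and for tested subunits, inhibitors, chemokines and receptors, and ranges for the rest. Of the other pathway genes, up to 5 with the largest changes were named per comparison.

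Replicates of a group held identical whole numbers in 17.9% to 36.5% of the 7820 genes, and no 2 libraries were the same. To see whether replicate numbers pair the libraries, deviations from the group means were correlated across genes between same-numbered libraries. Combination libraries correlated with ATRA libraries at 0.782 to 0.908 and with palbociclib libraries at 0.438 to 0.702, the single agents correlated with each other at 0.497 to 0.751, and untreated with treated libraries at 0.0453 to 0.367. The numbers thus pair the treated groups, by the data and not by the labels, and the replicate block was given beside comparisons among these. The alternatives were a threshold of 0.001, other filters, pseudocounts, scalings and variance settings, fits to the compared groups alone, the replicate block and leaving out each library in turn.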

Additional observations from a re-analysis of the deposited data

How the results depend on the processing

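Counts of called genes among the 25 depended mainly on the threshold, the replicate block and single libraries. With the limma threshold moved to 0.001, the counts were 7 for ATRA, 0 for palbociclib and 8 for the combination against untreated cells, and 4 for the combination against palbociclib. With palbociclib against untreated cells, the count of 1 became 2 with an RPKM of at least 1 in 3 libraries, with no filter beyond 1 library above 0 and with libraries scaled to their sum, and 0 with the compared groups alone. For the combination against ATRA it was 1 with the compared groups alone, and 1 with the 9 treated libraries and the block, TRAF3 each time. Leaving out 1 library in turn gave 9 to 15 genes for ATRA (9 without ATRA replicate 2), 0 to 1 for palbociclib (0 without untreated replicate 3), 13 to 17 for the combination against untreated cells and 8 to 11 against palbociclib.

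With the replicate number as a block, 19 genes were called for ATRA (35.4% of all genes), 6 for palbociclib (13.6%) and 18 for the combination (45.2%) against untreated cells, comparisons in which the numbers share too little to pair the libraries. Against palbociclib the block gave 17, and 18 with the 9 treated libraries alone, a setting chosen after seeing the data. The 6 genes for palbociclib were TRAF3, TRAF2, NLRP3, TNF, LTB and IL1RN.

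The 25 genes gave 42 called results over the 6 comparisons. Of their 935 values under the alternatives, 844 stayed called, 91 did not and 0 had the opposite sign. Of the 2390 values of the 108 results not called, 36 were called and 54 had the opposite sign, none of them past the threshold. Apart from the threshold and left-out libraries, calls were lost for NFKB2 and TNIP1 (ATRA) and NFKBIA, BIRC2 (combination), NFKB2, TNIP1 and TRAF3 (against palbociclib) with libraries scaled to their sum, for NFKB1 and TNFAIP3 (ATRA), NFKB1 (combination) and TNIP1 (against palbociclib) with median centring, and for TNIP1 and LTB (ATRA), TRAF3 (palbociclib), NFKBIA and BIRC2 (combination) and NFKB2, TNIP1 and IRAK1 (against palbociclib) with the compared groups alone. The looser filters lost NFKBIA and BIRC2 (combination) and TNIP1 (against palbociclib), and without any filter also TNFAIP3 (ATRA). They added PTGS2 and LTA for ATRA and for the combination, CD83 for palbociclib, and PTGS2, CD83 and BIRC3 against palbociclib, all low genes. Differences of 1 or 2 rounding steps, as in NFKB1, NFKB2 and TRAF3, lie at the limit of the deposited values.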
